A study of Arabidopsis thaliana with 3 samples.

Results

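The nutrient and sugar transporter families were described on 3 leaf arrays through 17 genes, out of 13356 genes that have a probe set annotated to 1 gene. Of the 13513 such probe sets only 1628 are named with a symbol and not only a locus tag. A rule on symbols therefore reaches a small part of these genes. A gene was taken where its symbol starts with NPF, NRT, AMT, SWEET, SUC, STP, PHT, SULTR, KUP, HAK or ZIP followed by a number. Membership thus follows names and not measured values, though genes and lists were chosen with earlier results of these data known. The 17 genes are 14 of the SWEET family, ZIP6, ZIP9 and NRT2.5, each with 1 probe set, so no choice between probe sets had to be made. No probe set compared here is paired with 1 gene under an AMT, SUC, STP, PHT, SULTR, KUP or HAK symbol, although the reference lists genes of each, and those families were not analysed here. The set therefore consists mainly of sugar transporters. A further 13 family genes carry another symbol and bear the family name only as a synonym: 11 of the NPF family, SWEET5 and SWEET15. They are given after the 17 and are not counted among them.

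The study concerned Arabidopsis MKK2, a MAP kinase kinase that relays stress signals, overexpressed as wild type and as a constitutively active form. Leaves of 2 week old plants were profiled on 1 array for each of 3 genotypes: 2 MKK2 lines in the Col-0 background and untreated Col-0, the usual laboratory accession. Titles and source names disagree on the lines: for MKK2 line A the title reads w.t.4 and the source name EE4, for MKK2 line B the title reads EE4 and the source name w.t.4, so no direction between the protein forms is given. Which promoter drives MKK2 is not stated in the labels. With 1 array per genotype there is no replicate error and no test, and every ratio compares these arrays rather than genotypes. Both lines are set against the same Col-0 array, so a deviation of that array enters both ratios. The tissue label was checked with markers: LHCB4.1, RCA and PSAE-1, the 3 of 8 mesophyll markers named here, lay between 4324 and 5899 on every array. EXPA7 and PYK10, both root markers, lay under 25 throughout. Of the guard cell markers, 2 of 4 are named here. GC1 had 315 in line A, with 290 in line B, against 375 in Col-0. FAMA had 41.0 in line A, with 52.4 in line B, against 55.0 in Col-0. The part of guard cells in the results was not tested. No phloem companion cell, xylem, flower or seed marker is named here.

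Plants move sugars and mineral ions across membranes with families of carriers. SWEET proteins let sugars pass down their gradient; in Arabidopsis their clade III members carry mainly sucrose, and those of clade IV sit in the vacuole membrane and carry fructose among other sugars. NRT2 proteins take up nitrate at high affinity, ZIP proteins take up zinc and related metals, and NPF proteins carry nitrate, peptides, hormones or glucosinolates. In leaves, SWEET11 acts with SWEET12 to release sucrose for phloem loading. SWEET12 is not among the genes described here.

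Values are MAS5 signals, a brightness for each probe set on a linear scale. Signals under 25 were set to that floor before ratios were taken, so a ratio with 1 signal under the floor is a bound, and with both under it no ratio is given. Signals of different probe sets are not comparable as levels. Brightness was used to choose genes and probe sets to name, to set signal ranges and to check the tissue label. Of the 17 genes, 6 were above the floor on all 3 arrays, another 6 on 1 or 2 arrays, and 5 on none. Only 4 genes, SWEET1, SWEET2, SWEET11 and SWEET17, had signals of 100 or more on every array. Of these 4, SWEET17 was above Col-0 in both lines and the other 3 were below it in both. Among all probe sets with a mean signal from 100 up to 400, 30.1% were above and 42.3% below Col-0 in both lines, and with 400 or more 34.2% were above and 36.3% below, all against the same Col-0 array.

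**Figure D1:**
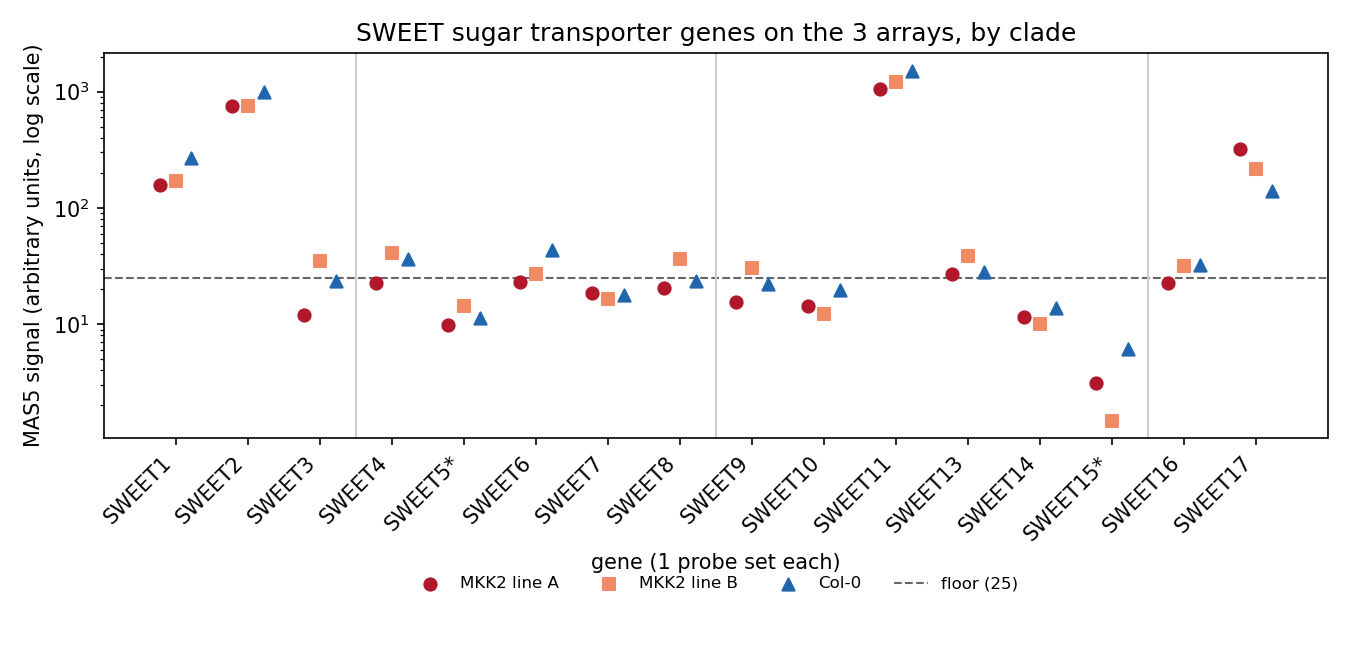
MAS5 signals of 16 SWEET genes (log axis) on the arrays of MKK2 line A, MKK2 line B and Col-0, with vertical lines between clades I, II, III and IV, an asterisk for a gene named by a synonym and a dashed line at the floor of 25. SWEET1, SWEET2 and SWEET11 show both lines under Col-0, SWEET17 shows both lines over it, and the other genes lie near or under the floor.

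SWEET17, the vacuolar fructose carrier of clade IV, had a signal of 324 in line A, with 216 in line B, against 140.3 in Col-0. It was highest in line A and lowest in Col-0. The ratio to Col-0 was 2.31-fold for line A and 1.54-fold for line B, and line A was 1.504-fold above line B. SWEET17 was the 1 of 17 genes that lay 2-fold or more above Col-0 in line A, where 1.4% of all 22746 probe sets did. Among the 4357 probe sets with a mean signal from 100 up to 400, the central 95% lay between 0.632-fold and 2.28-fold in line A, so SWEET17 stood just beyond the upper end. In line B that range was 0.610-fold to 1.89-fold and SWEET17 lay inside it. Of the same probe sets, 3.42% reached 2-fold above Col-0 for line A, while 4.11% reached 1.5-fold above it in both lines. SWEET17 lies near the edge of a distribution that holds many such genes.

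SWEET16, the other clade IV gene and also a vacuolar sugar carrier, had a signal of 22.5 in line A, with 31.4 in line B, against 32.2 in Col-0. Its line A signal was under the floor, which puts it at least 1.29-fold below Col-0. The line B ratio was 0.975-fold. So SWEET16 was level with or below Col-0 in the lines, where SWEET17 was above it.

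SWEET1, a glucose carrier of clade I in the plasma membrane, had a signal of 158 in line A, with 171 in line B, against 267 in Col-0. Both lines lay below Col-0 and close to each other. The difference was 1.69-fold for line A and 1.56-fold for line B. In line A the ratio of 0.591-fold lay below the central 95% of probe sets of its signal range, and in line B the ratio of 0.642-fold lay inside. SWEET2, a clade I carrier of glucose in the vacuole membrane, had 755 in line A, with 754 in line B, against 992 in Col-0. It was 1.31-fold and 1.32-fold lower, with the lines level. SWEET3, the remaining clade I gene, had 35.1 in line B and was under the floor in line A (12.0) and in Col-0 (23.8).

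SWEET11, the clade III sucrose carrier of phloem loading, had a signal of 1057 in line A, with 1212 in line B, against 1519.9 in Col-0. It was lowest in line A and highest in Col-0, with differences from Col-0 of 1.44-fold and 1.25-fold. Among the 1748 probe sets with a mean signal of 400 or more, the central 95% lay between 0.703-fold and 2.63-fold in line A and between 0.673-fold and 2.16-fold in line B. SWEET11 at 0.695-fold was just below that range in line A and inside it at 0.797-fold in line B, while SWEET2 was inside in both. In whole leaves, fewer cells of a type and less RNA per cell cannot be told apart. The companion cell markers, SUC2 among them, have no probe set named here, so phloem content was not tested.

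The other clade III genes were dim. SWEET13, a sucrose carrier that also moves gibberellin, had 27.0 in line A, with 38.3 in line B, against 28.4 in Col-0. SWEET9, the nectary sucrose carrier, passed the floor only in line B, at 30.3. SWEET10 and SWEET14 stayed under it on every array, between 10.04 and 19.5. SWEET10 and SWEET13 are direct neighbours among the protein-coding genes of the TAIR10.1 reference, and of these neighbours only SWEET13 had signals above the floor.

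In clade II, SWEET6 had a signal of 23.2 in line A, with 27.2 in line B, against 43.3 in Col-0. It was at least 1.73-fold lower in line A and 1.59-fold lower in line B. SWEET1 and SWEET6 were the 2 genes that lay 1.5-fold or more below Col-0 in both lines, as did 1.16% of all probe sets, and SWEET17 the 1 gene that far above it in both, as did 1.81%. SWEET6 rests on signals near the floor. Its line B ratio of 0.629-fold lay inside the central 95% of probe sets with a mean signal from 25 up to 100, which began at 0.577-fold, and its line A ratio is a bound that cannot be placed in such a range. SWEET4, a glucose carrier of the vascular tissue, had 22.8 in line A, with 41.2 in line B, against 36.4 in Col-0. SWEET8, needed for pollen wall formation, passed the floor only in line B, at 36.05, and SWEET7 was under it throughout.

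**Figure D2:**
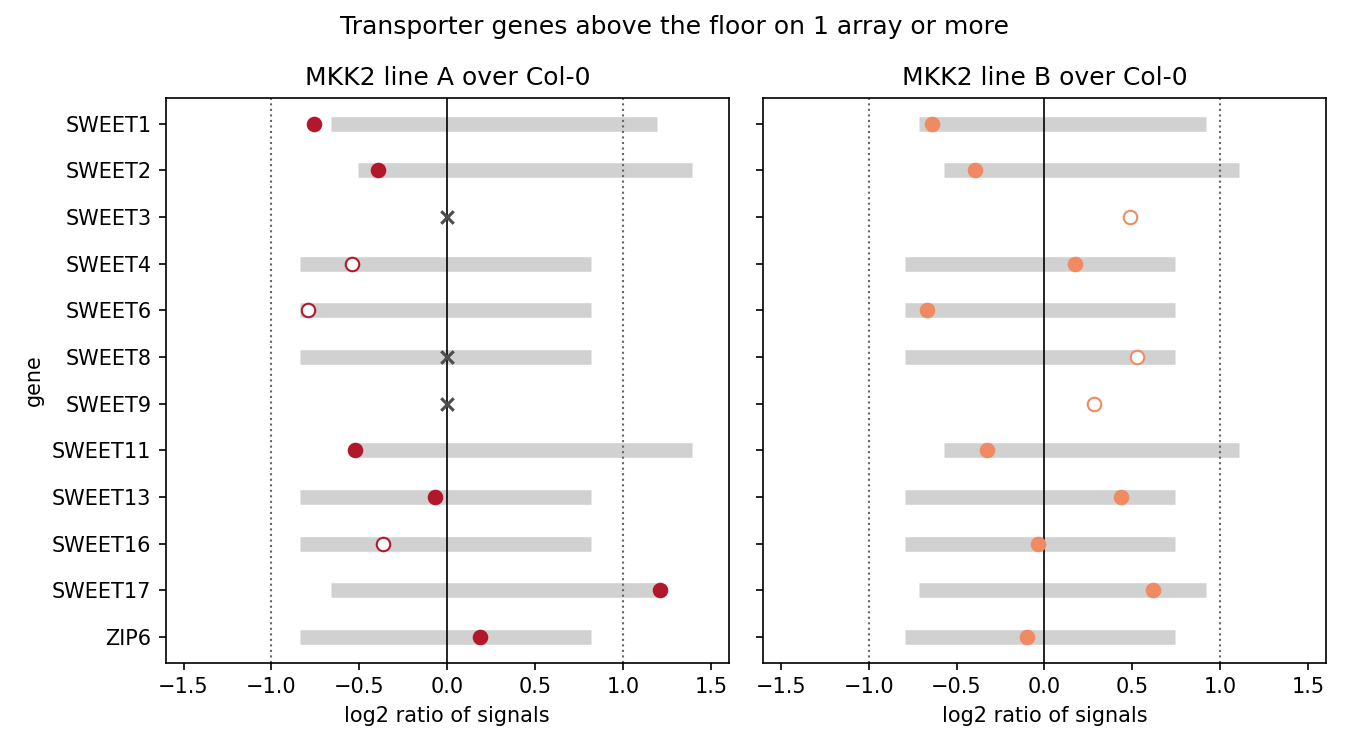
Log2 ratios of line A over Col-0 (left) and of line B over Col-0 (right) for the 12 genes above the floor on 1 array or more. Filled points are ratios of signals above the floor, open points are bounds, crosses mark genes under the floor on both arrays, grey bars give the central 95% of probe sets of the same signal range (omitted for genes with a mean signal under 25) and dotted lines mark 2-fold; SWEET17 alone passes 2-fold, in line A.

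No gene of the 17 lay 2-fold or more below Col-0 in line A, where 0.391% of all probe sets did. In line B none was 2-fold or more higher or lower, against 0.941% and 0.536% of all probe sets. With 17 genes such shares leave little room for any count but 0, so these zeros say little about the families. Over all 17 the log2 ratios to Col-0 had a median of 0 for each line, as they had over all probe sets. The log2 ratio was set to 0 in 8 genes for line A and in 5 for line B because both signals were under the floor. Nor did any gene pass 2-fold in both lines, where 0.699% of probe sets were higher and 0.0879% lower. At 1.5-fold, 1 gene was higher and 2 were lower than Col-0 in line A, against 3.31% and 3.92% of all probe sets. The same numbers of genes, 1 and 2, were found in line B, against 3.08% and 3.12%.

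Between the lines, none of the 17 genes differed 2-fold, where 0.585% of all probe sets were that much higher in line A and 0.18% lower. Line A was below line B in 9 genes and above it in 3. Of the 9, 6 had a line A signal under the floor, so these differences are bounds that rest on dim signals. These bounds have no order. SWEET4 was at least 1.65-fold lower in line A than in line B. SWEET17, at 1.504-fold above line B, was inside the central 95% of 0.678-fold to 1.62-fold of its signal range. SWEET4 and SWEET17 were the genes past 1.5-fold between the lines at the floor of 25, 1 each way, against 2.42% of all probe sets lower in line A and 2.34% higher. Over all probe sets 33.4% were below line B and 25.8% above it.

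The mineral nutrient genes taken by symbol were ZIP6, ZIP9 and NRT2.5. Of these only ZIP6 passed the floor, and it did so on every array. Nitrate transporters named by a synonym are given below. ZIP6, a metal transporter gene, had a signal of 56.6 in line A, with 46.4 in line B, against 49.7 in Col-0, which makes 1.14-fold and 0.934-fold of Col-0. ZIP9, known to be induced by zinc deficiency, lay between 16.5 and 23.3 on the 3 arrays. NRT2.5, a high-affinity nitrate transporter of nitrogen-starved plants, lay between 15.98 and 21.2. Neither ZIP9 nor NRT2.5 can be compared at these signals.

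Among the genes named by a synonym, GTR1 (NPF2.10) alone lay 2-fold or more above Col-0 in line A, where 1.4% of all probe sets did. GTR1, which carries glucosinolates over long distances, had a signal of 243 in line A, with 239 in line B, against 120.4 in Col-0. The lines lay level and above Col-0, 2.02-fold for line A and 1.98-fold for line B. Its partner GTR2 (NPF2.11) had 178 in line A, with 152 in line B, against 191 in Col-0, so both lines were below Col-0, by 1.08-fold and 1.26-fold. The ratio of GTR1 lay inside the central 95% of its signal range in line A and beyond the upper end of 1.89-fold in line B. Of the probe sets in that signal range, 3.42% reached 2-fold above Col-0 in line A. In both lines 4.11% of them reached 1.5-fold above it.

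The NPF6 genes stayed close to Col-0. AT3G21670 (NPF6.4), a nitrate transporter, had 1171 in line A, with 1228 in line B, against 1116 in Col-0. AT2G26690 (NPF6.2), a nitrate transporter of the leaf petiole, had 927 in line A, with 849 in line B, against 907 in Col-0. AT1G68570 (NPF3.1), which carries gibberellins, had 163 in line A, with 193 in line B, against 178 in Col-0. These genes lay between 0.914-fold and 1.101-fold of Col-0 in both lines.

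In the NPF4 group, which includes hormone carriers, AT3G25260 (NPF4.1), an importer of abscisic acid and gibberellin in yeast assays, had 3.67 in line A, with 7.88 in line B, against 35.6 in Col-0. AT1G27040 (NPF4.5) had 11.8 in line A, with 17.2 in line B, against 33.1 in Col-0. Both passed the floor in Col-0 alone, so line A and line B were at least 1.42-fold lower for NPF4.1 and at least 1.32-fold lower for NPF4.5. AT1G59740 (NPF4.3) had 40.7 in line A, with 52.9 in line B, against 47.3 in Col-0. NPF4.2, NPF4.4, NPF5.13, SWEET5 and SWEET15 were under the floor on every array. Of the 11 NPF genes, 8 passed the floor on at least 1 array.

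**Figure D3:**
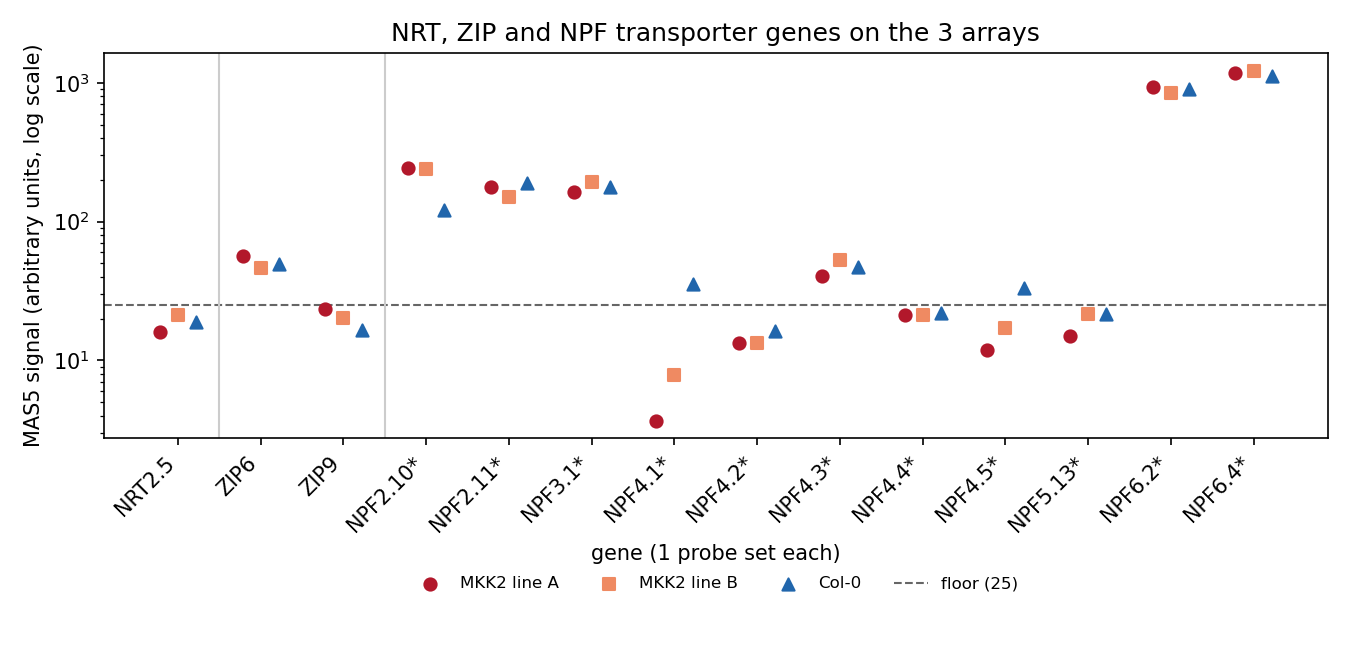
MAS5 signals (log axis) of NRT2.5, the ZIP genes and 11 NPF genes on the arrays of MKK2 line A, MKK2 line B and Col-0, with an asterisk for a gene named by a synonym and a dashed line at the floor of 25. NPF2.10 (GTR1) shows both lines over Col-0, NPF6.2 and NPF6.4 show 3 signals close together, and NPF4.1 shows both lines far under the floor.

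Other genes of nutrient and sugar handling were taken from lists of 172 genes, of which 10 have a probe set named here, and none of these 10 was 2-fold or more from Col-0 in either line. The shares of all probe sets given above, at most 1.4% in one direction, make 0 of 10 no result about the lists. SIR, the sulphite reductase, had 1007 in line A, with 877 in line B, against 1012 in Col-0. The regulator bZIP19, which switches on ZIP genes under zinc deficiency, had 211 in line A, with 192 in line B, against 229 in Col-0. SIZ1, a SUMO ligase of the phosphate response, had 175 in line A, with 182 in line B, against 251 in Col-0. SFP1, a sugar carrier of the ERD6-like group, had 379 in line A, with 417 in line B, against 374 in Col-0. CHX20, a guard cell cation exchanger, had 38.6 in line A, with 44.3 in line B, against 35.2 in Col-0. No gene of the nitrogen list is named here.

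TMT1 and TMT2, which load sugars into the vacuole, were singled out after their values were seen because they act at the same membrane as SWEET17. TMT1 had 164 in line A, with 115 in line B, against 222 in Col-0, and was 1.35-fold and 1.93-fold lower. TMT2 had 56.0 in line A, with 88.3 in line B, against 89.5 in Col-0, and was 1.598-fold and 1.01-fold lower. For TMT1 both lines were below Col-0 with line B lowest. Its line B ratio of 0.517-fold lay below the central 95% of its signal range, which began at 0.610-fold. Its line A ratio lay inside. TMT2 was inside the central 95% of its own signal range in both lines, with 0.626-fold in line A against a lower end of 0.560-fold. SWEET17 was above Col-0 in both lines, while SWEET2, also of the vacuole membrane, was below it in both.

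**Figure D4:**
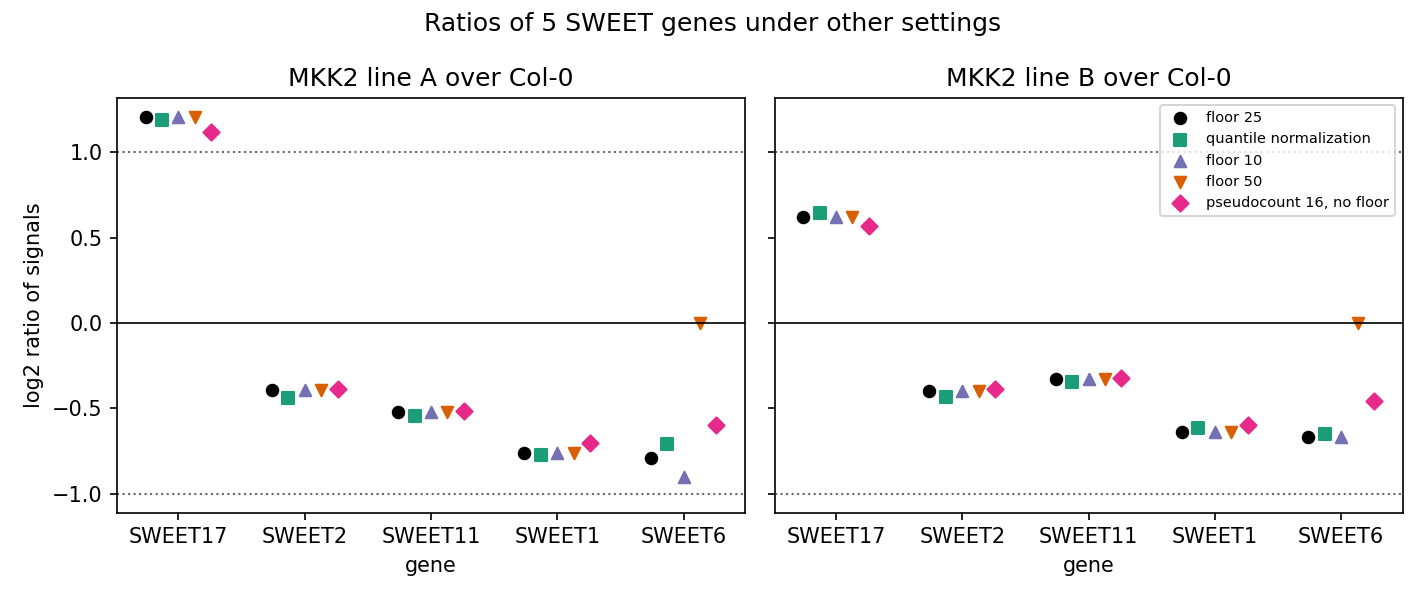
Log2 ratios of line A over Col-0 (left) and of line B over Col-0 (right) for SWEET17, SWEET2, SWEET11, SWEET1 and SWEET6 with floors of 25, 10 and 50, quantile normalization and a pseudocount of 16 without a floor; dotted lines mark 2-fold. SWEET17 stays above 2-fold in line A in all 5, and SWEET6 goes to 0 at a floor of 50.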

How the data were processed

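The authors deposited 1 intensity for each probe set and array, a MAS5 signal on a linear scale, per the submitters' processing notes. The labels state no software version, detection calls or genome build. The 2% trimmed mean was 100.01 on every array. Arrays were brought to a trimmed mean of exactly 100, the 64 control probe sets were left out, signals under 25 were set to 25, and log2 ratios were taken, called at 2-fold. No depth exists for arrays, and their number limits the precision. Signals under 25 made up 45.5% of probe sets in line A, 42.7% in line B and 42.0% in Col-0. Gene names are those of the platform annotation with symbols updated to TAIR10.1; 8730 probe sets have no gene there. The counting was tested on simulated data. Genes set to be named in full were the brightest of each family, those 2-fold or more away in any comparison, those 1.5-fold or more from Col-0 in both lines, and those with a signal of 100 or more. The remaining family genes, which meet none of these criteria, are given as well, with signals or as under the floor. From the lists, those 2-fold or more away or else the brightest were named, with the brightest probe set of each gene. In the lists, 4 symbols matched another gene of the same synonym and were left out. Genes and lists were chosen with earlier results of these data known. Computations used Python 3.11.15, numpy 2.4.6, pandas 2.3.3 and matplotlib 3.10.9.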

Additional observations from a re-analysis of the deposited data

How the results depend on the processing

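No paired analysis was possible because each genotype has 1 array. The count of 1 gene at least 2-fold above Col-0 in line A, which is SWEET17, was the same without rescaling, under quantile normalization, at floors of 10 and 50 and with a pseudocount of 16. It was 0 at a 3-fold threshold and 2 with the synonym genes, where GTR1 joined. At a 1.5-fold threshold 2 genes were lower than Col-0 in line A. In line B and in both lines together, 1 was higher and 2 were lower. Line A against line B had 1 higher and 1 lower. At a floor of 10, 1 gene, SWEET3, was 2.91-fold lower in line A than in line B, from a line A signal under 25. With that floor AT3G25260 (NPF4.1) was at least 3.56-fold lower than Col-0 in both lines, a bound from line signals under 10. With the pseudocount of 16 NPF4.1 was lower by 2.62-fold for line A and 2.16-fold for line B. There 0.391% and 0.409% of all probe sets were 2-fold or more lower. At the floor of 10 AT1G27040 (NPF4.5) was 2.79-fold lower than Col-0 in line A. There 2.23% of all probe sets were 2-fold or more lower, with 1.58% in line B and 1.52% for line A against line B. GTR1 was 2.03-fold higher in line B under quantile normalization, and it fell short of 2-fold in line A with the pseudocount. SWEET6 had no difference at a floor of 50 because all its signals are under it. The ratio to Col-0 ran from 2.18-fold to 2.31-fold for SWEET17 in line A and from 1.48-fold to 1.57-fold in line B. The median log2 ratio of the 14 SWEET genes in line A was -0.03 at the floor of 25, -0.48 at a floor of 10 and -0.30 with the pseudocount, where that of all probe sets was 0, -0.0080 and -0.073. No gene had several probe sets or a probe set with a suffix, so these choices changed nothing. Of 480 comparisons of single ratios and family medians with their alternatives, 45 moved by 0.2 or more on the log2 scale. Of these, 19 came at a floor of 10, 14 at a floor of 50, 11 with the pseudocount and 1 under quantile normalization. The other settings moved none. Adding synonym genes could move only family medians. The trimmed means were already equal, so rescaling changed little. The only ratio past 2-fold, SWEET17 in line A, kept its sign. Dim signals limit what can be said of 13 of the 17 genes.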
